A study of Mus musculus with 4 samples.

Results

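The effect of hypophysectomy on gene expression in the suprachiasmatic nucleus (SCN) of the mouse was examined at night, as the array of hypophysectomized (HPX) mice at Zeitgeber time (ZT) 14 minus the array of control (non-HPX) mice at ZT14. Genes were kept when the higher of their ZT14 values reached the median of those higher values over all genes, a floor of 5.93 on the log2 scale. This kept 11090 of the 22180 genes with a probeset of their own, and 10512 of the 11090 were at or above the floor on both arrays. Just below the floor stood Ucn and Dnaaf3, with differences of -0.33 and 0.21, and just above it Cpxm1 and Ephb4, with 0.11 and 0.10.

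The series holds 4 Affymetrix arrays, 1 for each combination of surgical state (HPX, with the pituitary gland removed, or non-HPX) and time (ZT2, early in the light, or ZT14, early in the dark, of 12 h light and 12 h dark). Both states had SCN tissue cut out by laser microdissection and pooled, and the design text gives 10 animals for each time without saying whether that is per state. Labels, protocols and design text were read for the rest. The strain, the age and sex of the mice, the interval since surgery, any sham operation of the controls and any hormone replacement are not stated in those sources. Each value is therefore 1 array of 1 pool, the spread between animals was not measured, and no difference below has a replicate check or a p-value.

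The pituitary gland drives the adrenal cortex, the thyroid and the gonads through its hormones, and it secretes growth hormone and prolactin. Its posterior lobe holds the terminals of hypothalamic neurons that release oxytocin and vasopressin. Glucocorticoids from the adrenal cortex act on cells through a nuclear receptor, and in nocturnal rodents their level is highest around the start of the night. The SCN is the hypothalamic nucleus that holds the central circadian clock, in which transcription factors such as CLOCK and BMAL1 drive Per and Cry genes that repress them in turn.

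Markers of the SCN were at high levels on both ZT14 arrays. Of 22 SCN identity genes with their own probeset, 19 reached the floor, among them Syt10 (11.67 in non-HPX and 11.61 in HPX), the vasoactive intestinal peptide receptor Vipr2 (10.73 and 10.66) and the homeodomain gene Lhx1 (8.13 and 8.44). The SCN peptides Vip (11.88 and 11.78) and Avp, encoding vasopressin (11.33 and 11.50), were likewise measured on both arrays. Of 9 pituitary genes, namely hormone genes and the transcription factors Pitx1 and Tbx19, 1 reached the floor (Lhb, 5.98 and 5.99), and 0 of 5 blood cell genes did. The operation targets no gene, so no value here checks the surgical label directly.

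Across the 11090 genes the median difference was 0.01, with an SD of 0.18, and the middle 95% of genes lay between -0.35 and 0.34. RMA gives the arrays 1 distribution before it summarises probesets, so a shift shared by most genes may be removed in part or whole. The probeset medians of the deposited ZT14 values were 5.47 in non-HPX and 5.45 in HPX. Genes at least 1.5-fold apart, a log2 difference of 0.58 or more, are called fallen or risen here as a description. By this rule 53 genes fell (0.478%) and 19 rose (0.171%), together 0.649% of the genes. At 2-fold the counts were 10 lower (0.0902%) and 2 higher (0.018%). The spread depended on the level: in the fifth of genes with the lowest mean level the middle 95% ran from -0.44 to 0.40 and 14 rose and 21 fell, while in the fifth with the highest it ran from -0.30 to 0.29 and 1 rose and 9 fell. Among the 580 genes with several probesets, the highest and lowest probeset of a gene differed in this contrast by a median of 0.16, and the 95th percentile of that gap was 0.51.

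**Figure D1:**
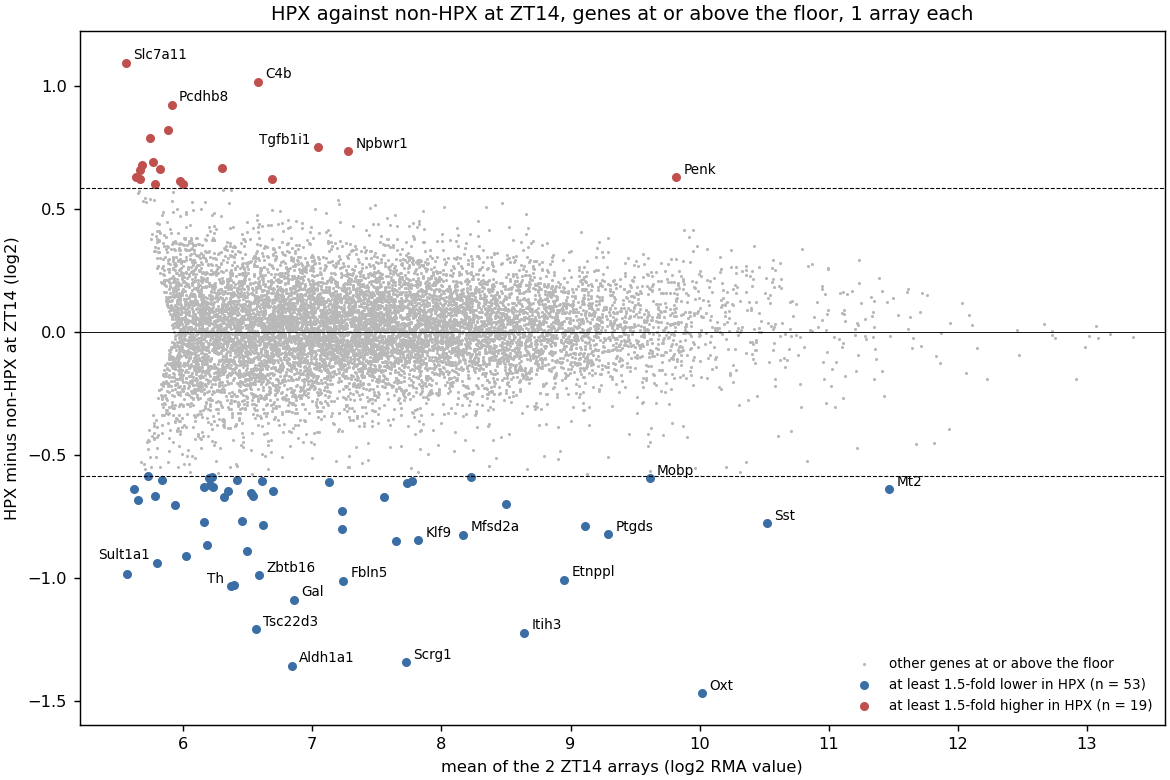
Each point is 1 of the 11090 genes, with the mean of its log2 values on both ZT14 arrays on the x axis and HPX minus non-HPX at ZT14 (log2) on the y axis. Dashed lines mark 1.5-fold, blue points are the 53 fallen and red points the 19 risen genes. Most risen genes lie at the left, and Penk is the risen gene with the highest mean level, whereas fallen genes extend up to Mt2 at 11.47.

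Of the 53 fallen genes, 36 were at or above the floor on both arrays and 17 dropped below it in HPX. Of the 19 risen genes, 13 were below the floor in non-HPX and 6 were at or above it on both arrays. A gene that entered through 1 array alone had to differ, so the counts of the risen genes rest largely on low signals. Members of the lists below with 1 ZT14 value under the floor entered in the same way, in either direction.

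Genes that glucocorticoids are known to induce were lower in the HPX array at night. Of 20 listed genes at the floor (8 more lay below it), 14 were lower and 6 higher, with a median of -0.27 against 0.01 over all genes, and 5 fell and 0 rose. Over all genes 46.7% were lower at ZT14, 0.478% fell and 0.171% rose. The list also holds Nr3c1, which encodes the glucocorticoid receptor itself and stood at 7.85 in non-HPX and 7.96 in HPX. At ZT2 the same 20 genes had 16 lower and a median of -0.18, where 65.6% of all 11090 genes were lower and their median was -0.06.

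Tsc22d3, which encodes the glucocorticoid-induced leucine zipper protein, was at 7.17 in non-HPX and 5.96 in HPX at ZT14, a 2.31-fold fall. At ZT2 it was at 6.13 in non-HPX and 5.90 in HPX, so the non-HPX ZT14 array was the high one of the 4. Zbtb16, a zinc finger transcription factor, was likewise highest on the non-HPX ZT14 array: 7.08 there against 6.09 in HPX, with 6.43 and 6.29 at ZT2, so its HPX ZT14 array was the lowest. Its fall at ZT14 was 1.99-fold. Sult1a1, a sulfotransferase, was at 6.27 in non-HPX and 5.33 in HPX at ZT14, a 1.92-fold fall to a value below the floor, and at 5.86 and 5.69 at ZT2. In all 3 genes the difference at ZT2 was under 0.25 on the log2 scale, and the difference between the times was not tested.

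Klf9 and Mt2 fell as well, and their arrays were ordered otherwise. Klf9, a Krüppel-like transcription factor induced by both glucocorticoid and thyroid hormone, was at 8.25 in non-HPX and 7.40 in HPX at ZT14 (1.8-fold) and at 8.21 and 7.49 at ZT2, so both HPX arrays were low. Mt2, which encodes a metal-binding metallothionein, was at 11.79 in non-HPX and 11.15 in HPX at ZT14 (1.56-fold), against 11.77 and 11.57 at ZT2, with the HPX ZT14 array lowest. Its neighbour in function, Mt1, was lower by less than 1.5-fold, at 10.91 and 10.51. Ddit4, an inhibitor of mTOR signalling (6.86 and 6.36), Sgk1, a kinase that regulates ion transport (6.37 and 5.94), and Fkbp5, a co-chaperone of the receptor (6.02 and 5.74), were also lower by less than 1.5-fold. The 6 higher members were Rasd1, Angptl4, Dusp1, Nr3c1, Errfi1 and Per1, by 0.26 or less. Rasd1, a dexamethasone-induced Ras protein that is also rhythmic in the SCN, was at 10.33 in non-HPX and 10.59 in HPX at ZT14, and at 8.17 and 7.24 at ZT2.

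**Figure D2:**
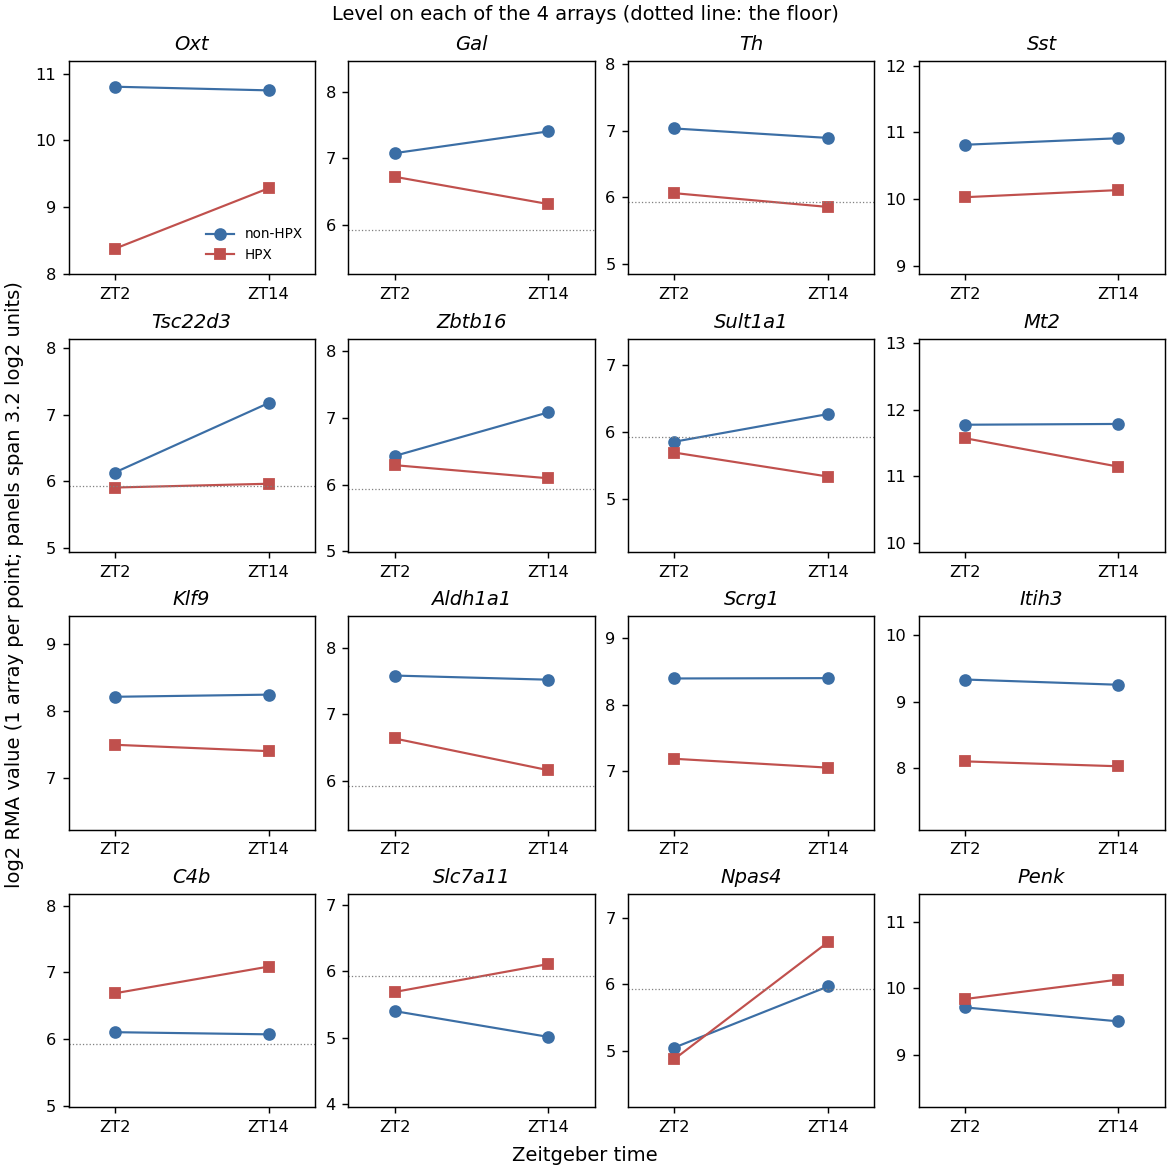
Each panel shows 1 gene on the 4 arrays, as its log2 value on the y axis against the time on the x axis, with lines joining the arrays of a surgical state and a dotted line at the floor; every point is 1 array of pooled tissue, so there are no error bars. Tsc22d3 and Zbtb16 are separated between the states mainly at ZT14, and Scrg1 and Itih3 at both times.

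The letters ahead of the transcription starts of 4 listed genes are shown because they differ in whether they hold a core of the glucocorticoid receptor element, ACANNNTGT, a motif that reads alike on both strands. It was searched on both strands in RefSeq windows (GRCm38.p6) from 250 bases before a start to 50 after it. A window with the motif was found for 2249 of 32851 starts (6.85%), and for 4 of the 26 windows of the 16 listed genes that had one (15.4%), belonging to Glul, Mt1 and Sgk1. It was found in 0 of the 6 windows of the fallen genes, of which 4 of 5 had a window. Over all 53 fallen genes, 36 had windows and 5 of 45 windows held it (11.1%), in Fam107a, Folh1, Nts and Rras2. A match is a description and not a binding site, and receptor sites far from a start lie outside these windows. The 250 bases before each start are printed, with the motif in capitals: Mt2 (chr8:94172368-94172617, + strand) and Klf9 (chr19:23140976-23141225, + strand) have no match, Mt1 (chr8:94178839-94179088, + strand) has one 92 bases before the start, and Sgk1 has one 127 bases before one start (chr10:21978422-21978671, + strand) and one 186 bases before another (chr10:21993640-21993889, + strand).
Mt2: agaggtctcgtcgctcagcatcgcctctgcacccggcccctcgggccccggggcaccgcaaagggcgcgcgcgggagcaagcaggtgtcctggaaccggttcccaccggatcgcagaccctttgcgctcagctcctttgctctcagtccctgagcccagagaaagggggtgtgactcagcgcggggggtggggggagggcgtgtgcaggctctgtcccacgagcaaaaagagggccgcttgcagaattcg
Klf9: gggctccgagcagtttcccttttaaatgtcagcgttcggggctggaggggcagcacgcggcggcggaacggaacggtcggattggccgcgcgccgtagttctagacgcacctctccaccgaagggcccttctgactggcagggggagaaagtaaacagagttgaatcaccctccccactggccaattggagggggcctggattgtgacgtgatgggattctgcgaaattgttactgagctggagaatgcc
Mt1: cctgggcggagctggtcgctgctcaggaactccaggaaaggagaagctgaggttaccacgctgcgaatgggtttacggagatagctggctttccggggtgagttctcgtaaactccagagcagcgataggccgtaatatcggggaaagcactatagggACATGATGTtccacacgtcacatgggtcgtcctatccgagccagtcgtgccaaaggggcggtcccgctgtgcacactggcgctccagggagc
Sgk1, first start: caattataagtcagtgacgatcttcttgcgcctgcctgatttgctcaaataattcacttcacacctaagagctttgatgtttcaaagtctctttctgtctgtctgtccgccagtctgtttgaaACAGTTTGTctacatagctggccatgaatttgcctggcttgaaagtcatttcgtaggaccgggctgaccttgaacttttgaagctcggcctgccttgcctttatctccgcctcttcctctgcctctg
Sgk1, other start: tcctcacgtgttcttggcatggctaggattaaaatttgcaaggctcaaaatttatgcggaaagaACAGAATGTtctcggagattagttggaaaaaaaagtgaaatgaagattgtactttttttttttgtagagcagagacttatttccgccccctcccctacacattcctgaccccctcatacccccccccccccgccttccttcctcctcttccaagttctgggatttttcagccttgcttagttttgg

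Genes that respond to thyroid hormone were also mostly lower, and here the count leans on genes placed on the list with results of these data in view. Of 15 listed genes at the floor, 12 were lower, 3 fell (Aldh1a1, Itih3 and Klf9) and 0 rose, with a median of -0.19. Over all genes 46.7% were lower and 0.478% fell. Without Aldh1a1 and Itih3, 10 of 13 were lower and the median was -0.09. Kcnj10, the inward rectifier potassium channel of glial cells, was just short of 1.5-fold at 9.42 in non-HPX and 8.84 in HPX, with 9.46 and 8.75 at ZT2. Thrsp, a thyroid hormone-inducible regulator of lipid synthesis, was at 6.94 and 6.66, and Hr, the hairless corepressor, at 6.03 and 5.79. The receptor gene Thra was higher by 0.26 and Thrb lower by 0.03.

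Genes of growth hormone and insulin-like growth factor signalling and of hormone receptors had no member past 1.5-fold. Of 12 growth hormone and IGF genes, 8 were higher and the median was 0.04. The ghrelin receptor Ghsr (6.58 and 6.95), the binding protein Igfbp5 (9.81 and 10.15) and the insulin receptor substrate Irs2 (7.78 and 8.08) were higher, and the growth factor Igf2 (6.33 and 5.90) was lower. Of 7 hormone receptor genes, 5 were higher, with a median of 0.08. The vasopressin receptor Avpr1a, at 7.34 and 7.70, differed most.

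Genes of hypothalamic neurons outside the SCN held the fallen gene with the largest difference. Oxt, which encodes oxytocin, was at 10.75 in non-HPX and 9.28 in HPX at ZT14, a 2.77-fold fall, and at 10.80 and 8.37 at ZT2. Both HPX arrays were below both non-HPX arrays. Th, tyrosine hydroxylase of catecholamine neurons, was at 6.89 and 5.86 at ZT14 (2.05-fold) and at 7.03 and 6.06 at ZT2. Its HPX value at ZT14 was below the floor. Of all genes 46.7% were lower at ZT14 and 0.478% fell. The list has 16 genes at the floor, of which 12 were lower, 4 fell (Oxt, Th, Gal and Sst) and 0 rose, with a median of -0.13. It shares Avp, Gal and Sst with the list of SCN peptides, and Avp was one of the 4 higher genes. Without these 3 genes, 10 of 13 were lower, 2 fell and the median was -0.11. Oxytocin neurons lie mainly in nuclei other than the SCN, so tissue beside the SCN in the cut pieces would carry Oxt. Its part in these values was not tested. In pooled tissue, fewer cells of a type and less RNA per cell cannot be told apart.

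Other genes of neighbouring neurons did not pass 1.5-fold, and 13 more listed ones lay below the floor. Trh, thyrotropin-releasing hormone, was at 9.16 and 8.65, Npy, neuropeptide Y, at 6.52 and 6.35, and Sim1, a transcription factor of paraventricular neurons, at 6.17 and 5.99. Hdc, the histamine-synthesizing enzyme, was at 7.11 and 7.38, and Slc6a3, the dopamine transporter, at 5.82 and 6.14. Slc6a3 was below the floor in non-HPX and entered through its higher HPX value. The summed linear level of the 13 genes that are not on the SCN peptide list was 3363 in non-HPX and 2014 in HPX, an intensity sum in which the brightest probesets, here that of Oxt, weigh most.

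Among peptides and peptide receptors found in the SCN, Gal, Sst and Nts fell and Penk rose, while the leading SCN peptides were close to their non-HPX level. Of 21 listed genes, 11 were lower and 10 higher, with a median of -0.05. Among all 11090 genes 46.7% were lower, 0.478% fell and 0.171% rose. Gal, encoding galanin, was at 7.40 in non-HPX and 6.31 in HPX (2.13-fold), with 7.08 and 6.72 at ZT2, so the HPX ZT14 array was lowest. Sst, encoding somatostatin, which inhibits growth hormone release, was at 10.91 and 10.13 (1.71-fold), with 10.81 and 10.03 at ZT2. Nts, encoding neurotensin, was at 5.94 and 5.30 (1.56-fold), with 5.94 and 5.14 at ZT2. For Sst and Nts both HPX arrays were low, by about the same amount at each time. Nts, however, was barely above the floor of 5.93 on both non-HPX arrays and below it on both HPX arrays.

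Penk, which encodes the enkephalin precursor, was at 9.50 in non-HPX and 10.13 in HPX at ZT14, a 1.54-fold rise, and at 9.71 and 9.84 at ZT2, so the HPX ZT14 array was highest and the others lay within 0.4 of each other. The gastrin-releasing peptide receptor Grpr was at 8.21 and 8.74 and Avpr1a was higher too, both by less than 1.5-fold. Galr1, a galanin receptor, was lower at 6.52 and 5.99, as was Cartpt at 6.92 and 6.56. Vip, Avp, Grp and Nms, peptides of SCN neurons, differed by -0.10, 0.17, -0.15 and 0.13. Avp at ZT2 was lower in HPX, at 11.29 in non-HPX and 10.82 in HPX.

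Core clock genes had no member past 1.5-fold at ZT14. Of 22 with their own probeset, all at the floor, 11 were higher and 11 lower, with a median of -0.01. The repressor gene Cry2 was at 7.35 in non-HPX and 7.81 in HPX, Fbxl21, which encodes an F-box protein that acts on cryptochromes, at 7.93 and 8.30, and the nuclear receptor gene Nr1d1 at 8.09 and 8.39. Its paralogue Nr1d2 was at 8.52 and 8.20. Per1 (7.89 and 7.92), Clock (10.46 and 10.39), Arntl, which encodes BMAL1 (9.18 and 9.35), and Cry1 (7.99 and 8.14) differed by 0.18 or less. Per2 was not analysed here. The E-box CACGTG, the same on both strands, was in 6 of the 30 windows of the 21 clock genes with one (20%), against 2349 of all 32851 (7.15%), and the genes with it were Bhlhe41, Ciart, Cry1, Per1 and Tef. Their differences ran from -0.17 to 0.15.

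SCN identity genes and synaptic vesicle release genes were slightly higher on the HPX night array, with 0 members past 1.5-fold. Of 19 identity genes 16 were higher, with a median of 0.16, where 53.2% of all genes were higher. Vax2 (5.59 and 6.03), a homeodomain gene, Rgs16 (9.72 and 10.11), a regulator of G-protein signalling that is rhythmic in the SCN, and Lhx1 differed most among the higher ones, and Vax1 was lower at 7.78 and 7.64. Vax2 was below the floor in non-HPX and entered through its higher HPX value. Of 25 genes on the synaptic vesicle release list 20 were higher, with a median of 0.12, among them Rab3a (9.63 and 9.93), while Cplx2 was lower at 7.65 and 7.39. The higher members also include Pcsk1n (8.43 and 8.73) and Pam (10.00 and 10.31), which encode proteins of neuropeptide processing rather than of vesicle release. At ZT2 both lists lay the other way, with medians of -0.14 and -0.12, where the median of all genes was -0.06. The differences between the times were not tested.

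**Figure D3:**
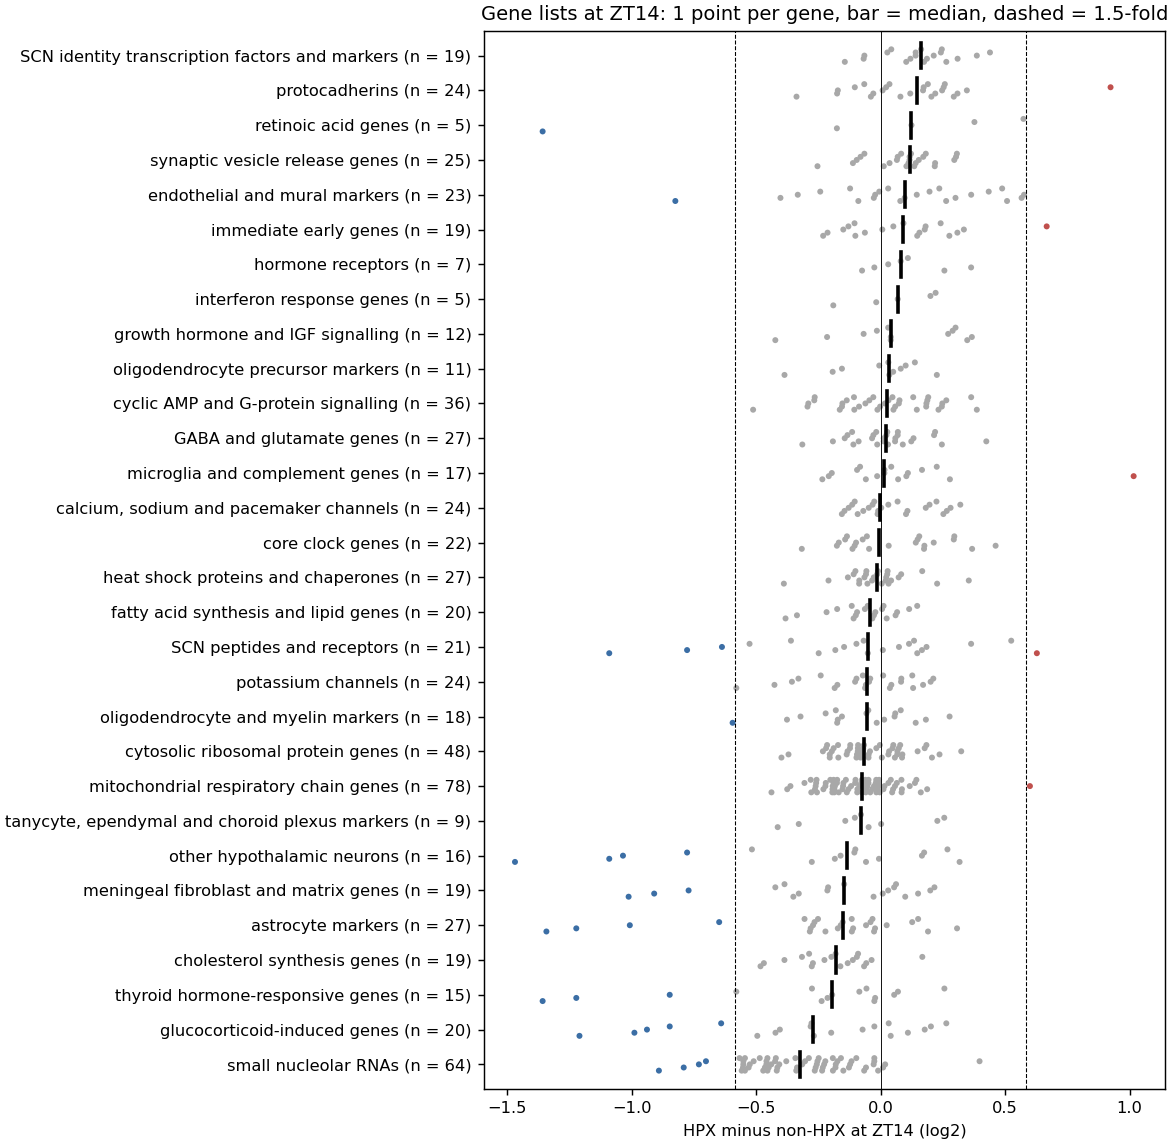
Each line of the plot is 1 gene list with its number of members at the floor; every small point is a member's HPX minus non-HPX difference at ZT14 (log2, x axis) and the bar is the list's median. The small nucleolar RNA list has the lowest median, -0.33, and the SCN identity list the highest, 0.16; blue and red points are members past 1.5-fold, and dashed lines mark that fold.

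Immediate early genes held 1 gene past 1.5-fold and channel and signalling genes held 0. Npas4, an activity-dependent transcription factor, was at 5.97 in non-HPX and 6.64 in HPX at ZT14 (1.59-fold), against 5.05 and 4.88 at ZT2, both below the floor. It was the sole riser of 19 immediate early genes, of which 12 were higher, with a median of 0.09. Among all 11090 genes 53.2% were higher and 0.171% rose. Fos was at 6.27 and 6.17, and Nr4a1, a nuclear receptor induced by activity, at 7.14 and 7.47. Of 24 potassium channel genes, 27 GABA and glutamate genes, 24 calcium, sodium and pacemaker channel genes and 36 genes of cyclic AMP and G-protein signalling, 0 passed 1.5-fold, and the list medians lay between -0.05 and 0.02. Gabre, a GABA-A receptor subunit, was higher at 7.60 and 8.02, and Rasgrp1, a guanine nucleotide exchange factor, lower at 8.68 and 8.17.

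Astrocyte genes were mostly lower, led by genes that were placed on the list with earlier results in view. Scrg1 was at 8.40 in non-HPX and 7.05 in HPX at ZT14 (2.54-fold), with 8.39 and 7.19 at ZT2. Itih3, a hyaluronan-binding inter-alpha-trypsin inhibitor heavy chain, was at 9.26 and 8.03 (2.33-fold), with 9.33 and 8.11 at ZT2. Etnppl, an enzyme that breaks down phosphoethanolamine, was at 9.46 and 8.45 (2.01-fold), with 9.03 and 8.31 at ZT2. For all 3 genes both HPX arrays were below both non-HPX arrays. Gjb6, the astrocytic gap junction protein connexin 30, was at 7.02 and 6.38 (1.57-fold), with 7.10 and 6.53 at ZT2.

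Of the 27 astrocyte genes 22 were lower, 4 fell and 0 rose, with a median of -0.15. Over all genes 46.7% were lower and 0.478% fell. Without Scrg1, Itih3 and Etnppl, 19 of 24 were lower, 1 fell and the median was -0.12. The defining genes Gfap, Aqp4, Aldh1l1, Slc1a2, Gja1 and Gjb6 were all lower, by unlike amounts. Gfap, the intermediate filament of astrocytes, was at 9.12 and 9.01, the water channel gene Aqp4 at 8.70 and 8.67, and Aldh1l1 at 7.19 and 7.04. The glutamate transporter gene Slc1a2 (7.99 and 7.72) and Gja1, which encodes connexin 43 (9.70 and 9.42), were lower by about 0.3, and Gjb6 by 0.65. Among the other members, the glycolytic gene Aldoc (11.20 and 10.89) was lower by about 0.3, and Sox9 was higher at 7.76 and 8.06. The mean log2 level of the 24 genes was 8.69 in non-HPX and 8.58 in HPX.

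Genes of the vessel wall and of the matrix each held fallen genes that had been placed there with results in view. Mfsd2a, the lipid transporter of the blood-brain barrier, was at 8.58 in non-HPX and 7.76 in HPX (1.77-fold), with 8.09 and 7.37 at ZT2. The other 22 endothelial and mural genes had 14 higher and 8 lower, with a median of 0.12. Cldn5, the tight junction protein claudin 5 (6.08 and 6.66), Tek, the angiopoietin receptor (5.37 and 5.93), and Slc16a1, a monocarboxylate transporter (7.77 and 8.28), were higher, just short of 1.5-fold or less, while the efflux pump gene Abcb1a (7.43 and 7.03) was lower. Tek was below the floor in non-HPX and entered through its higher HPX value. Fbln5, an elastic fibre protein, was at 7.74 and 6.73 (2.02-fold), with 7.87 and 6.42 at ZT2. Gdf10, a secreted factor of the TGF-beta family, was at 6.48 and 5.57 (1.88-fold), and Sfrp5, an inhibitor of Wnt signalling, at 6.55 and 5.77 (1.71-fold), both below the floor in HPX. The other 16 matrix genes had 8 higher and 8 lower, with a median of -0.01, among them the fibroblast gene Dcn at 6.61 and 6.28.

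Oligodendrocyte, precursor, microglial and ependymal genes held 2 genes past 1.5-fold. Among all 11090 genes 0.649% passed that fold, 46.7% were lower and 53.2% higher. Mobp, a myelin protein gene, was at 9.91 in non-HPX and 9.32 in HPX (1.51-fold), with 9.82 and 9.62 at ZT2, and 11 of 18 oligodendrocyte genes were lower, with a median of -0.05. Mbp, the myelin basic protein gene, was at 8.37 and 8.32. C4b, which encodes complement component C4, was at 6.07 in non-HPX and 7.08 in HPX (2.02-fold), with 6.10 and 6.68 at ZT2, so both HPX arrays were high. C4b has a close copy, C4a, and signal from the copies may not be separable. Of 17 microglial and complement genes 10 were higher, with a median of 0.02, and the microglial markers Cx3cr1 (7.53 and 7.55) and P2ry12 (7.15 and 7.25) were near their non-HPX level. Of 11 precursor genes 4 were lower and of 9 tanycyte, ependymal and choroid plexus genes 6 were, with medians of 0.03 and -0.08, and Dynlrb2, a dynein light chain of ciliated cells, differed by -0.41.

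Cholesterol synthesis genes were lower almost throughout, each by less than 1.5-fold. Of 19 listed genes, all at the floor, 18 were lower and Lss was higher (6.69 and 6.86). Their median was -0.18 at ZT14, and at ZT2 it was -0.19 with 19 of 19 lower. Of all 11090 genes, 46.7% were lower at ZT14 and 65.6% at ZT2, with medians of 0.01 and -0.06. The largest differences were those of Msmo1, a sterol methyl oxidase (8.34 in non-HPX and 7.86 in HPX), Hsd17b7, which acts late in the pathway (6.70 and 6.23), Insig1, the sterol sensor that holds back SREBP (9.09 and 8.71), and Sc5d, a sterol desaturase (9.26 and 8.95). Of 20 fatty acid and lipid genes 13 were lower, with a median of -0.04, and the desaturase gene Fads1 differed most, at 10.06 and 9.68.

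The sterol element TCACNCCAC was searched on both strands because SREBP, the regulator of this pathway, is known for it. It was in 1 of 18 windows of the 15 cholesterol genes with one (5.56%) and in 408 of 32851 windows overall (1.24%). The window with it belongs to Hmgcs1, HMG-CoA synthase, which was at 9.67 in non-HPX and 9.45 in HPX, and whose 250 bases before the start (chr13:119690101-119690350, + strand) hold it 137 bases before the start, in capitals here.
Hmgcs1: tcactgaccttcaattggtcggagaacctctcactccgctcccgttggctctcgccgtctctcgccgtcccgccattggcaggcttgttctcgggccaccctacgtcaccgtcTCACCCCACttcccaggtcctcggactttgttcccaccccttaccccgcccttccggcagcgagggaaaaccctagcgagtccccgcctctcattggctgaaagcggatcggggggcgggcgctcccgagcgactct
The E-box was in 4 of the 18 windows (22.2%), in Dhcr7, Hsd17b7, Insig1 and Sc5d, against 7.15% of all windows. It was also in 15.4% of the windows of the glucocorticoid list and 12.5% of those of the thyroid hormone list.

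Small nucleolar RNAs (snoRNAs), which guide the chemical modification of ribosomal and spliceosomal RNA, were lower in HPX at ZT14 in nearly all cases. Of 64 listed snoRNAs and small Cajal body RNAs at the floor, 61 were lower and 3 higher (95.3% lower, against 46.7% of all genes), with a median of -0.33. Snord66, Scarna17, Snord1b and Snord65 fell and 0 rose. Snord66 was at 6.94 in non-HPX and 6.05 in HPX (1.85-fold), with 7.37 and 6.25 at ZT2, and Scarna17 at 9.51 and 8.72 (1.73-fold), with 9.35 and 9.30 at ZT2. Snord1b was at 7.59 and 6.86 and Snord65 at 8.85 and 8.15. The 3 higher ones were Snord23 (8.45 and 8.85), Snora35 and Snora78, the latter pair by 0.02 or less.

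At ZT2, 47 of the 64 were lower, 10 of them past 1.5-fold, with a median of -0.20. Of all 11090 genes, 65.6% were lower at ZT2 and 0.604% were lower past 1.5-fold, with a median of -0.06. The share of lower snoRNAs thus stood nearer to that of all genes at ZT2 than at ZT14. More of them passed 1.5-fold lower at ZT2 (10) than at ZT14 (4). Some members, such as Snord35a (9.90 and 9.33 at ZT14, 10.03 and 9.46 at ZT2) and Snord55 (10.63 and 10.10, then 10.86 and 10.14), were low in HPX at both times. Others were lower in HPX at ZT14 and not at ZT2 by a like amount: Snora62 was at 7.92 and 7.46, with 7.88 and 7.86 at ZT2, and Scarna6 at 9.84 and 9.39, with 9.71 and 10.00, the opposite direction, at ZT2. Of 30 genes that host snoRNAs in their introns, listed after the snoRNA values were seen, 18 were lower, 0 passed 1.5-fold and the median was -0.04. Among other small RNAs, 4 of 5 spliceosomal small nuclear RNAs were lower at ZT14, with a median of -0.24. At ZT2 20% of these 5 were lower, with a median of 0.095. Of the 134 microRNA genes described below, 68 were lower at ZT14, with a median of -0.00.

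**Figure D4:**
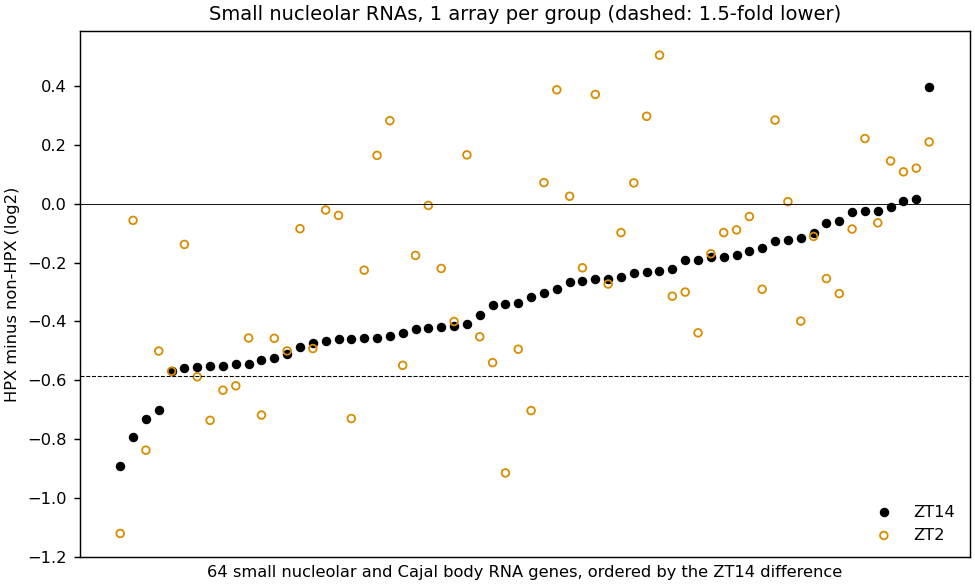
Each of the 64 snoRNAs and small Cajal body RNAs has a filled point for HPX minus non-HPX at ZT14 and an open point for the same at ZT2 (log2, y axis), ordered along the x axis by the ZT14 difference, with 1.5-fold lower dashed. The filled points lie below 0 for 61 of the 64 and the open points, which scatter more widely, for 47. Of all genes, 46.7% were lower at ZT14 and 65.6% at ZT2.

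Genes of ribosomes and mitochondria leaned slightly downward at ZT14, where 46.7% of all genes were lower. Of 48 cytosolic ribosomal protein genes 30 were lower and 0 passed 1.5-fold, with a median of -0.07 at ZT14 and 0.11 at ZT2. Rpl11 (5.93 and 5.53) and Rps28 (7.69 and 7.32) were lowest relative to non-HPX, and Rpl5 was higher at 6.28 and 6.60. Rpl11 was at the floor in non-HPX and below it in HPX. Of 78 genes of the mitochondrial respiratory chain and its assembly 61 were lower, with a median of -0.08, and 1 rose. The riser was Ndufs5, a complex I subunit, at 5.70 in non-HPX and 6.30 in HPX (1.52-fold), with 5.90 and 6.03 at ZT2. Ndufs5 was below the floor in non-HPX and entered through its higher HPX value. Ndufa1, another complex I subunit, was lower at 8.62 and 8.18. Of 27 heat shock and chaperone genes 15 were lower and 0 passed 1.5-fold, with Hspa1a at 6.21 and 5.83 and Hspa2 at 7.38 and 7.74.

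Other fallen genes were of several kinds. Aldh1a1, a retinaldehyde dehydrogenase that makes retinoic acid, was at 7.52 in non-HPX and 6.16 in HPX (2.56-fold), with 7.58 and 6.64 at ZT2. Of 4 other retinoic acid genes at the floor, 3 were higher, among them the receptor gene Rarb at 5.37 and 5.94. Rarb was below the floor in non-HPX and entered through its higher HPX value. Cyp4f15, a fatty acid hydroxylase of the cytochrome P450 family, was at 6.91 and 5.88 (2.04-fold), with 6.46 and 5.56 at ZT2. Both HPX arrays were low for Aldh1a1 and Cyp4f15, and Cyp4f15 was below the floor in HPX at ZT14.

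Ptgds, prostaglandin D synthase, a product of meninges, choroid plexus and oligodendrocytes, was at 9.70 in non-HPX and 8.88 in HPX (1.77-fold), with 10.06 and 9.59 at ZT2. Slc25a33, a mitochondrial pyrimidine nucleotide carrier, was at 8.07 and 7.22 (1.8-fold), with 7.68 and 7.28 at ZT2. Zfp874a, a zinc finger gene, was at 7.63 and 6.83 (1.74-fold), with 7.51 and 7.44 at ZT2, so the HPX ZT14 array alone was low. The remaining 16 fallen genes with plain names differed by -0.59 to -0.77: Fam166c, Ppef2, Fam107a, Plod2, Klhl21, Ccdc92b, Proca1, Rras2, Folh1, Rpf2, Timm10, Zfp82, Fsip1, Mia, Prex2 and Cbln1. Among them Fam107a, an actin-associated protein that glucocorticoids and stress are known to induce in brain, was at 7.89 and 7.22 (1.59-fold), with 7.60 and 7.08 at ZT2.

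Of the risen genes, Slc7a11 and C4b reached 2-fold. Slc7a11, the cystine-glutamate exchanger of astrocytes and other cells, was at 5.01 in non-HPX and 6.11 in HPX at ZT14 (2.13-fold), with 5.40 and 5.69 at ZT2. This is the mean of a bright probeset, at 7.48 and 8.44 at ZT14, and a dim one, at 2.55 and 3.78, and both were higher in HPX. At ZT2 the bright probeset was at 7.54 in non-HPX and 8.15 in HPX, a difference of 0.60 and past 1.5-fold. The dim probeset was at 3.26 and 3.23 there. Pcdhb8, a cell adhesion protein of the protocadherin cluster, was at 5.45 and 6.37 (1.9-fold), with 6.37 and 6.44 at ZT2, so the non-HPX ZT14 array was the low one. Genes of that cluster are similar in sequence, and of 24 protocadherin genes 17 were higher, 1 rose and the median was 0.14. Among all 11090 genes 53.2% were higher and 0.171% rose.

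Tgfb1i1, a focal adhesion protein and nuclear receptor coactivator, was at 6.67 in non-HPX and 7.42 in HPX at ZT14 (1.68-fold), with 6.39 and 6.09 at ZT2. Npbwr1, the receptor of neuropeptides B and W, was at 6.91 and 7.65 (1.66-fold), with 5.94 and 5.93 at ZT2. For Tgfb1i1, Npbwr1 and Npas4 the HPX ZT14 array was the highest and both ZT2 arrays were below the ZT14 ones. Saal1 rose by 0.62 (1.54-fold), and the other risen genes with plain names, Pilrb1, Cd37, Gpr31b and Bhlha9, rose by 0.60 to 0.69 from values below the floor.

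MicroRNAs, snoRNAs, clones and predicted genes made up 13 of the fallen genes, and such names and an olfactory receptor 6 of the risen genes. Among the latter the largest differences were those of Gm8603 (0.82) and 4933407K13Rik (0.79). Of 134 microRNA genes at the floor 68 were lower, 3 fell and 1 rose, with a median of -0.00. Among all 11090 genes 46.7% were lower, 0.478% fell and 0.171% rose. The array measures the precursors or host transcripts of microRNAs rather than the mature forms. Mir1839 was at 6.06 in non-HPX and 5.08 in HPX (1.98-fold), with 5.99 and 6.08 at ZT2, so the HPX ZT14 array alone was low. Of the 4 microRNA genes past 1.5-fold, it was the 1 matched to a mature sequence in the RefSeq table (chr7:81529919-81529940, + strand, GRCm38.p6), printed here to identify the product, with the seed, bases 2 to 8, in capitals.
mmu-miR-1839-5p: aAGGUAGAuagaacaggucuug
Mir30d was higher at 5.49 and 6.15, and Mir297b and Mir669j fell by 0.63 and 0.62.

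The same genes were then set beside the ZT2 pair of arrays, which shares no array with the ZT14 pair. At ZT2, 67 of the 11090 genes were at least 1.5-fold lower in HPX (0.604%) and 20 higher (0.18%). Of the 53 genes that fell at ZT14, 42 (79.2%) were lower at ZT2 as well, where 65.6% of all genes were lower, and 17 passed 1.5-fold the same way. The median of the 53 was -0.73 at ZT14 and -0.28 at ZT2. Of the 19 that rose, 10 (52.6%) were higher at ZT2, where 34.3% of all genes were, and 1 passed 1.5-fold, Gm7361, at 5.34 and 6.02 at ZT14 and 5.40 and 6.18 at ZT2. The median of the 19 was 0.67 at ZT14 and 0.07 at ZT2.

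**Figure D5:**
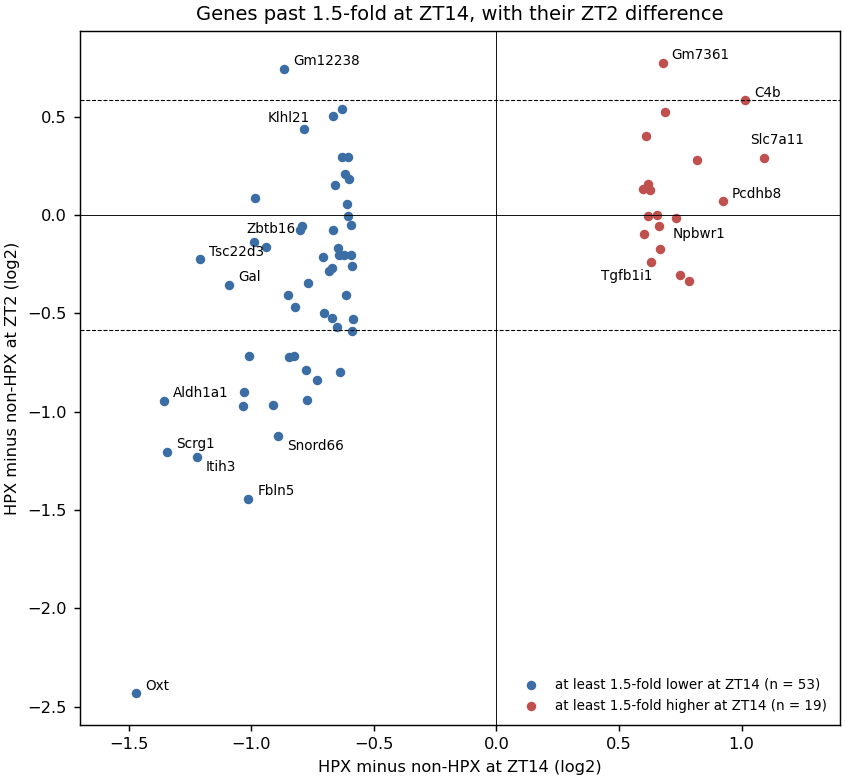
Each point is 1 of the 72 genes past 1.5-fold at ZT14, with HPX minus non-HPX at ZT14 on the x axis and at ZT2 on the y axis (both log2; dashed lines mark 1.5-fold at ZT2). Oxt, Fbln5, Itih3 and Scrg1 are far below 0 on both axes, Tsc22d3, Zbtb16 and Gal are nearer 0 at ZT2, and Gm12238 lies on opposite sides.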

How the data were processed

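Total RNA was extracted with TRIzol from laser-microdissected, pooled SCN tissue and labelled with the WT PLUS kit (5.5 µg of fragmented cDNA), per the labels' protocols. The submitters' processing notes name RMA and Affymetrix Expression Console, with versions not given in the sources used here, and the values the authors deposited are on the log2 scale. RMA corrects background, gives all arrays 1 distribution and summarises each probeset. Of 41345 probesets, 23521 named exactly 1 gene in the platform annotation, 1814 named several and 16010 were not listed. RefSeq's table (GRCm38.p6) held 23328 of the 23521 and changed 0 symbols. Single-gene probesets were averaged, which gave 22180 genes.

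With 1 array per group no test was possible, and the number of arrays limits the precision. Differences of at least 1.5-fold were counted and 35 gene lists were described by counts and medians. The scripts were tested on simulated data. The lists and members were chosen with earlier results of these data known, in particular Scrg1, Itih3, Etnppl, Aldh1a1, Fbln5, Gdf10, Sfrp5 and Mfsd2a.

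Named were the 20 genes with the largest rise and the 20 with the largest fall past 1.5-fold (clone, predicted, microRNA, snoRNA and receptor cluster names only in part), list members past 1.5-fold or otherwise up to 4 with the largest differences, defining markers, and the genes next to the floor. Other names were chosen after their values were seen. Alternatives were cyclic loess (limma 3.58.1, R 4.3.3), median centring, other floors, the brightest probeset, a 2-fold threshold and lists without the 8 genes above. Python 3.11.15, numpy 2.4.6, pandas 2.3.3 and matplotlib 3.10.9 were used.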

Additional observations from a re-analysis of the deposited data

Results flagged for a closer look

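Gm12238, annotated as a snoRNA, was the 1 gene past 1.5-fold in opposite directions at the times. HPX minus non-HPX was -0.87 at ZT14, from 6.62 to 5.75, and 0.74 at ZT2, from 6.18 to 6.92. The difference was not tested.

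For 3 lists the medians lay at least 0.1 from 0 on opposite sides at the times, and these differences were not tested either. The median of the SCN identity genes was 0.16 at ZT14 and -0.14 at ZT2, that of the synaptic vesicle release genes 0.12 and -0.12, and that of the 5 retinoic acid genes 0.12 and -0.30. Other lists had medians of opposite sign with at least one nearer to 0, such as the immediate early genes (0.09 and -0.17) and the ribosomal protein genes (-0.07 and 0.11). The median of all 11090 genes was 0.01 at ZT14 and -0.06 at ZT2.

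Probesets without a gene name were not used in the comparison. Of 5336 of them at the floor, 178 were at least 1.5-fold higher in HPX at ZT14 (3.34%) and 298 lower (5.58%), with differences from -3.21 to 2.66 and a median of -0.03. For probesets of several genes the counts were 3 higher and 17 lower of 813. What the unnamed probesets measure is not given in the sources used here.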

How the results depend on the processing

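No paired analysis was possible because each group holds 1 array and the labels carry no replicate numbers, and no array can be left out. All 72 genes kept their sign under the alternatives that rescale the values or take another probeset. Of 197 medians of lists recomputed under an alternative, 177 moved by less than 0.1 and 20 by more, and 18 changed sign and 2 came to 0. Of the 18, 14 were of lists whose reported median was within 0.1 of 0: SCN peptides, potassium channels, calcium and sodium channels, clock, endothelial, heat shock, microRNA and microglial genes, so no direction is read from those medians. The count of risen genes was 19, and it was 2 at 2-fold, 281 without a floor, 3 with a stricter floor of 7.40 (the upper quartile) and 6 with both values at the floor. The count of fallen genes was 53, and it was 10, 311 and 23 under the first 3 of these. Risen genes were 26.4% of all past 1.5-fold as reported, 47.5% without a floor, 11.5% with the stricter floor, 14.3% with both values at the floor, 28.8% after cyclic loess and 35.8% after median centring, which moves the median of all genes by 0.03. After cyclic loess all 19 risen and 50 of the 53 fallen genes remained past 1.5-fold, without Fsip1, Mia and Cbln1. After median centring all 19 and 44 of 53 remained, and Mobp was among the 9 lost. With the stricter floor, medians were 0.0935 for clock genes, -0.0223 for endothelial, 0.16 for growth hormone and IGF, 0.18 for hormone receptor, 0.20 for immediate early, -0.0890 for microglial, 0.20 for olfactory receptor, -0.65 for other hypothalamic, -0.24 for tanycyte, ependymal and choroid plexus, -0.32 for thyroid hormone-responsive, 0.0081 for matrix and -1.36 for retinoic acid genes, and those of the clock, endothelial, microglial, matrix and retinoic acid genes changed sign. Without a floor they were -0.0859 for thyroid hormone-responsive, 0.00959 for retinoic acid and 0 for matrix genes. Retinoic acid genes stood at -0.0262 with the brightest probeset and -0.0262 with the floor from all 4 arrays. Without the members placed with results in view, medians were -0.0103 for matrix, -0.0859 for thyroid hormone-responsive and 0.25 for retinoic acid genes. The retinoic acid list has 5 members. The lists without members in view or without SCN peptides and the count with both values at the floor were chosen after seeing the data.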
